A study of Mus musculus with 6 samples.

Results

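The genes that set the fate of pyruvate and lactate were followed in growth plate cartilage of E18.5 mouse embryos. They were chosen by symbol and number 10 of the 15803 genes in the table, namely the lactate dehydrogenases Ldha and Ldhb, the pyruvate dehydrogenase subunit Pdha1, its kinases Pdk1, Pdk2 and Pdk3, the monocarboxylate transporters Slc16a1 and Slc16a3, and the mitochondrial pyruvate carriers Mpc1 and Mpc2. The WT group comprised 3 libraries from Hnrnpk fl/fl embryos, in which loxP sites flank part of the Hnrnpk gene and no Cre recombinase is present. The CKO group comprised 3 libraries from littermates that also carried Col2a1-Cre, in which the Col2a1 promoter drives Cre in chondrocytes and removes that part of Hnrnpk, a gene for an RNA-binding protein. Embryos of both sexes were used, and the sources used here do not say whether a library held the RNA of 1 embryo or of several.

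Pyruvate, the end product of glycolysis, has competing fates. In the cytosol, lactate dehydrogenase reduces it to lactate and regenerates NAD+ for glycolysis, and monocarboxylate transporters move the lactate across the cell membrane together with a proton. Alternatively, the mitochondrial pyruvate carrier brings pyruvate into the mitochondrion, where the pyruvate dehydrogenase complex turns it into acetyl-CoA unless pyruvate dehydrogenase kinases have switched the complex off by phosphorylation. Growth plate cartilage has no blood vessels, and its chondrocytes rely on glycolysis. Ldha, Pdk1 and Slc16a3 are textbook targets of the hypoxia-inducible factor Hif-1. The study compared the genotypes to look for the mechanism of the growth plate changes, and went on to examine Hif-1 signaling and glycolysis.

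Levels are given as CPM, the reads of a gene scaled to the same total of listed reads in every library, and sets of 3 values follow the order of replicates 1, 2 and 3. The libraries held between 1153871 and 1454094 reads, so that 1 read was worth 0.688 to 0.867 CPM. Differences are log2 fold changes of CKO over WT on the scale log2(CPM + 1), tested with limma and adjusted over the 12155 genes that averaged 1 CPM or more, a filter that all 10 genes passed. Hnrnpk itself had overlapping values, from 842 to 955 CPM in WT and from 759 to 949.9 CPM in CKO. Such gene totals also hold reads from outside the removed part and so do not check the labels, on which the direction of each difference rests. The libraries were not equally alike. The mean chi-square per gene, about 1 for sampling noise alone, was 1.29 between CKO 1 and CKO 3 and 2.06 between WT 1 and WT 2, whereas CKO 2 differed from the other CKO libraries by 13.1 and 14.2, and WT 3 from the other WT libraries by 8.65 and 9.43. Values without WT 3, without CKO 2 or without both, the last chosen after seeing the data, are given beside results that they move. The fit without both kept only the most alike libraries of each genotype, WT 1, WT 2, CKO 1 and CKO 3. Its p-values rest on a spread narrowed by that choice, and it called 20.2% of the genes it tested. Of 8 chondrocyte markers, all were detected and 6 fell past the adjusted threshold, and their summed level was 13970.0 to 18922 CPM in WT against 3675 to 4442 CPM in CKO. In bulk samples of this kind, fewer cells of a type and less RNA per cell cannot be told apart.

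The levels of the 10 genes spanned a wide range. They were divided by the merged length of all annotated exons of a gene, which allows only a rough comparison between genes. The transcripts expressed may be shorter, and the order depends on this length. By CPM alone, the WT means were 241 for Pdha1, 158 for Mpc2 and 144 for Ldhb, and Mpc1 at 5.66 lay below Pdk1 at 10.4. Per kilobase of annotated exon, Ldha was highest in WT at 1027 ± 77.2 CPM per kilobase (SD, n = 3), followed by Ldhb at 91.8 ± 14.6 and Pdha1 at 64.6 ± 5.07. Pdk3, Mpc2 and Slc16a3 came next with 23.2, 21.5 and 18.8 CPM per kilobase. The ranges of these neighbours overlapped, so their order is not resolved. Pdk2 followed at 7.23 CPM per kilobase, then Mpc1 at 2.72 and Slc16a1 at 2.36, whose ranges overlapped, and Pdk1 was lowest at 1.33 ± 0.267. In CKO, Ldha was again highest at 1333 ± 212 CPM per kilobase, the ranges of Ldhb and Pdha1 overlapped, and Pdk1 was again lowest at 0.190 ± 0.157.

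**Figure D1:**
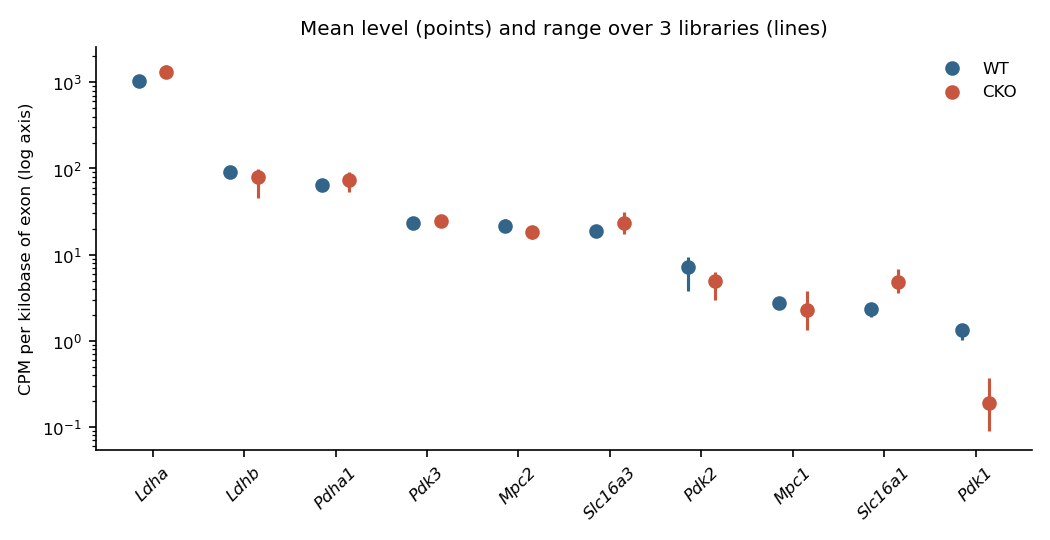
Mean level in CPM per kilobase of exon (points) with the range over 3 libraries (lines) for each gene, WT in blue and CKO in red, on a log axis. Ldha stands above every other gene in both genotypes, at 1027 CPM per kilobase in WT and 1333 in CKO. Pdk1 is lowest in both on this scale, which divides by the merged length of all annotated exons.

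Of the 10 genes, 1 fell and 0 rose past the adjusted threshold of 0.05 in limma, where 5.78% of all 12155 genes tested were called, 2.6% as lower and 3.18% as higher. The gene that fell was Pdk1, and edgeR and DESeq2 on the recovered reads likewise called 1 lower and 0 higher. At an unadjusted p under 0.05 there were 3 of the 10 genes, Pdk1, Slc16a1 and Ldha, against 21.3% of all genes tested. In these 3 genes the genotypes did not overlap, against 27.7% of all genes tested. Slc16a1 and Ldha lay higher in each CKO library, as 14.5% of all genes did, and Pdk1 lower, as 13.2% did. The study's own criterion, an absolute log2 fold change over 1 together with an unadjusted p below 0.05, was met by 1 of the 10 genes, Pdk1, against 10.4% of all genes tested, 5.1% as lower and 5.3% as higher. The median log2 fold change of the 10 genes was -0.084, beside 0.013 over all genes tested. With 3 libraries against 3, an exact two-sided permutation test of a single gene cannot give a p below 0.1.

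**Figure D2:**
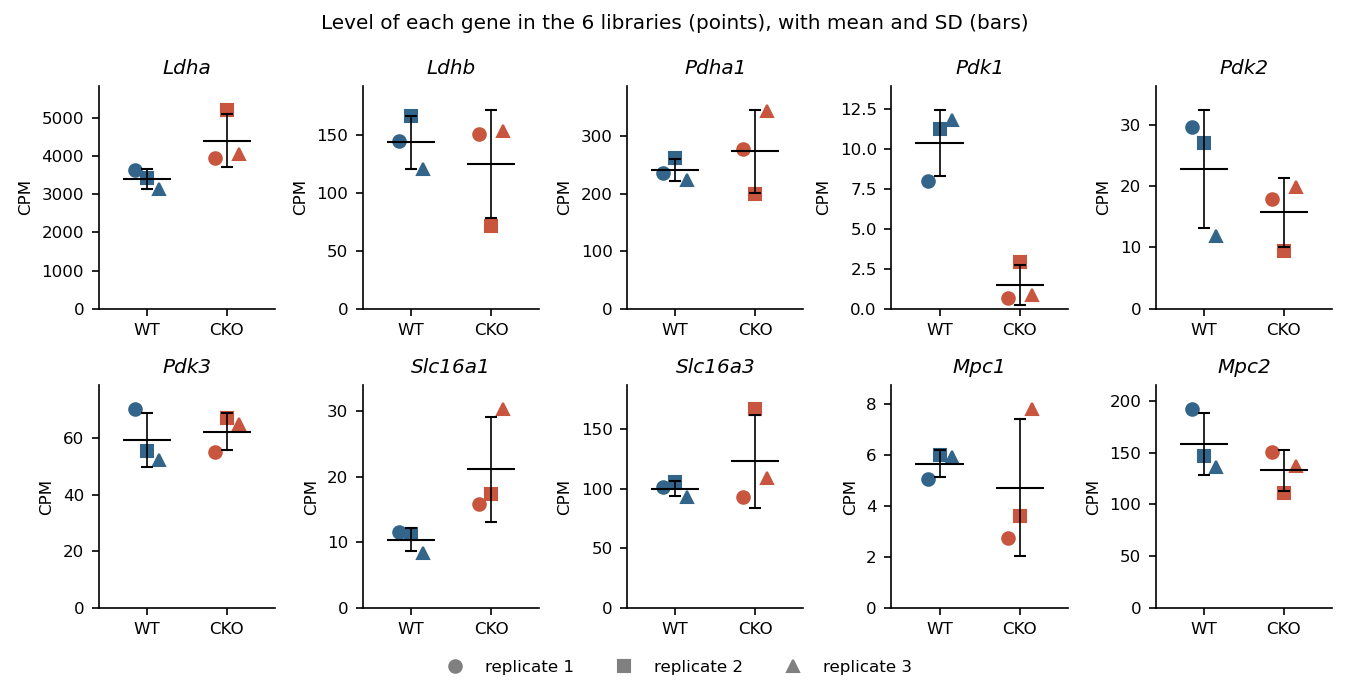
CPM of each gene in the 6 libraries, WT in blue and CKO in red, with the replicate number shown by the symbol and the mean ± SD as black bars. For Ldha and Slc16a1 every CKO library lies above every WT library, for Pdk1 every CKO library lies below, and the other 7 genes overlap.

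The promoters of the genes were read for the core letters of the hypoxia response element, to which Hif-1 binds. RefSeq windows on GRCm38.p6, from 250 bases before to 50 bases after a transcription start, were available for all 10 genes, in 14 windows. ACGTG or GCGTG on either strand was found in 11 of the 14 windows and in at least 1 window of each of the 10 genes, while 43.8% of all 32851 windows hold it. ACGTG alone is in 19.6% and GCGTG in 32.4% of all windows. The palindrome CACGTG, which holds ACGTG on both strands and is also an E-box, is in 7.15%. A match to each of Pdk1, the gene that fell, Ldha, the most abundant gene, and both transporters is shown, in the direction of transcription, with the core in capitals between 10 bases on each side.
Pdk1 (chr2:71873136-71873160): gcctacatggGCGTGtctttaacca
Ldha (chr7:46845747-46845771): cccagcctacACGTGggttcccgca
Slc16a1 (chr3:104638455-104638479): gcgccgggtcACGTGgcgggaaggg
Slc16a3 (chr11:120949043-120949067): tgcgcgggggACGTGccgcgcgacg
These genes lie on the plus strand, and the core begins at position -78 for Pdk1, -47 for Ldha, -199 for Slc16a1 and -14 for Slc16a3, counted from the RefSeq start. Pdk1, lower in each CKO library, and Ldha and Slc16a1, higher in each, all carry the letters. The matches shown for Ldha and Slc16a1 are each part of the palindrome CACGTG. A match is a description of the sequence and not a measurement of binding.

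Pdk1 (ENSMUSG00000006494) encodes a pyruvate dehydrogenase kinase, which phosphorylates the E1 alpha subunit and so limits the entry of pyruvate into the tricarboxylic acid cycle. On GRCm38 the gene lies on the plus strand of chromosome 2, from 71873224 to 71903858. It was at 7.97, 11.3 and 11.8 CPM in the WT libraries, from 11, 15 and 14 reads. The CKO libraries had 0.688, 2.89 and 0.867 CPM, from 1, 4 and 1 reads. The highest CKO library, CKO 2, stood well below the lowest WT library. Summed over libraries, the level was 6.83-fold lower in CKO (95% exact interval 2.88 to 19.7, counting error only), and limma gave a log2 fold change of -2.28 (standard error 0.45, 95% interval -3.29 to -1.28, adjusted p = 0.0185). The adjusted p was 0.0166 in edgeR and 0.0343 in DESeq2. The call did not hold in every fit that left out 1 library. It was lost in 5 of the 6, those without WT 1, WT 2, WT 3, CKO 1 or CKO 3. There the log2 fold changes ran from -2.44 to -2.06 and limma's adjusted p from 0.0536 to 0.0901. The call was kept without CKO 2 (-2.66, limma's adjusted p = 0.00409). Over all genes, the 5 fits that lost it called 212 to 543, against 703 with all libraries, and the fit without CKO 2 called 1298. The chondrocyte markers fell in the same libraries as Pdk1, and their part in this result was not tested.

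Pdk2 and Pdk3 encode kinases of the same family, and neither passed the threshold. Pdk2 had 29.7, 27.0 and 11.8 CPM in the WT libraries against 17.9, 9.38 and 19.9 CPM in the CKO libraries. The lowest library of each genotype was the one that stands apart, WT 3 or CKO 2, and the genotypes overlapped. Its log2 fold change was -0.48 (95% interval -1.36 to 0.41, limma's adjusted p = 0.540). It was -0.87 without WT 3, -0.16 without CKO 2 and -0.56 without both, and limma's adjusted p was 0.205, 0.829 and 0.137. Pdk3, the kinase with the most reads, was at 70.3, 55.5 and 52.4 CPM in the WT libraries and at 55.0, 67.1 and 65.0 CPM in the CKO libraries, which overlapped. Its log2 fold change was 0.076, with a 95% interval from -0.37 to 0.52 that excludes a change of 1 in either direction.

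The make-up of the kinase RNA was compared within each library. Of the reads on Pdk1, Pdk2 and Pdk3 together, Pdk1 took 7.38%, 12% and 15.6% in the WT libraries and 0.935%, 3.64% and 1.01% in the CKO libraries. The Pdk3 share was 59.2% to 68.9% in WT and 74.8% to 84.5% in CKO. These read shares did not overlap between the genotypes, although per kilobase of exon the Pdk3 share did. The kinase reads per 100 reads of Pdha1, which encodes their substrate, were 45.6, 35.8 and 33.8 in WT and 26.5, 39.9 and 24.9 in CKO. The CKO 2 value lay within the WT range, while CKO 1 and CKO 3 lay below it.

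Pdha1 encodes the E1 alpha subunit of the pyruvate dehydrogenase complex, the part that the kinases phosphorylate. The WT libraries held 237, 262 and 225 CPM and the CKO libraries 278, 199 and 344 CPM. CKO 2 was the lowest and CKO 3 the highest of the 6 libraries, and the log2 fold change was 0.15 (95% interval -0.30 to 0.60, limma's adjusted p = 0.723). Without CKO 3 it was -0.033, without CKO 2 it was 0.36 and without WT 3 and CKO 2 it was 0.31, none of them called. The gene's exons overlap those of Map3k15 on the other strand over 603 bases, but Map3k15 had 1 read in all libraries.

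Ldha (ENSMUSG00000063229; GRCm38 chromosome 7, 46841475 to 46855627, plus strand) encodes the lactate dehydrogenase subunit that favours the reduction of pyruvate to lactate. Its level was 3639, 3427 and 3131 CPM in the WT libraries. The CKO libraries held 3949.5, 5219.9 and 4072 CPM. CKO 1 exceeded the highest WT library by a small margin, and CKO 2 stood far above all others. The mean was 1.30-fold higher in CKO, and the log2 fold change of 0.37 had a 95% interval from 0.024 to 0.71 (limma, unadjusted p = 0.0384, adjusted p = 0.204). It shrank to 0.24 once CKO 2 was left out. Without both WT 3 and CKO 2 it was 0.18 with adjusted p = 0.0147, in a fit that called 20.2% of the genes it tested. Ldha has 17 near-identical annotated copies, none of which is in the table, and how reads shared with them were assigned is not given in the sources used here.

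Ldhb encodes the subunit that favours the oxidation of lactate back to pyruvate. It had 145, 167 and 121 CPM in the WT libraries and 151, 71.5 and 153 CPM in the CKO libraries. CKO 2 held less than any other library, while CKO 1 and CKO 3 lay within the WT range. The log2 fold change was -0.27 (95% interval -0.90 to 0.36, limma's adjusted p = 0.633), and it was 0.092 without CKO 2.

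Lactate dehydrogenase is a tetramer of these subunits, and the ratio of their RNAs was compared within each library. Ldha made up 96.2%, 95.4% and 96.3% of the reads of both genes in the WT libraries and 96.3%, 98.6% and 96.4% in the CKO libraries. In CKO 2 the 95% Wilson interval was 98.4% to 98.9%, above every other library. In CKO 1 it was 95.8% to 96.8%, which covers the values of WT 1 and WT 3, so the small margin by which the genotypes did not overlap was within the counting error. Set against Pdha1, Ldha had 15.4, 13.1 and 13.9 reads per Pdha1 read in WT and 14.2, 26.2 and 11.8 in CKO. CKO 2 was again the highest and lay above the WT range. CKO 1 lay close to the WT mean of 14.1, and CKO 3 lay below the WT range.

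**Figure D3:**
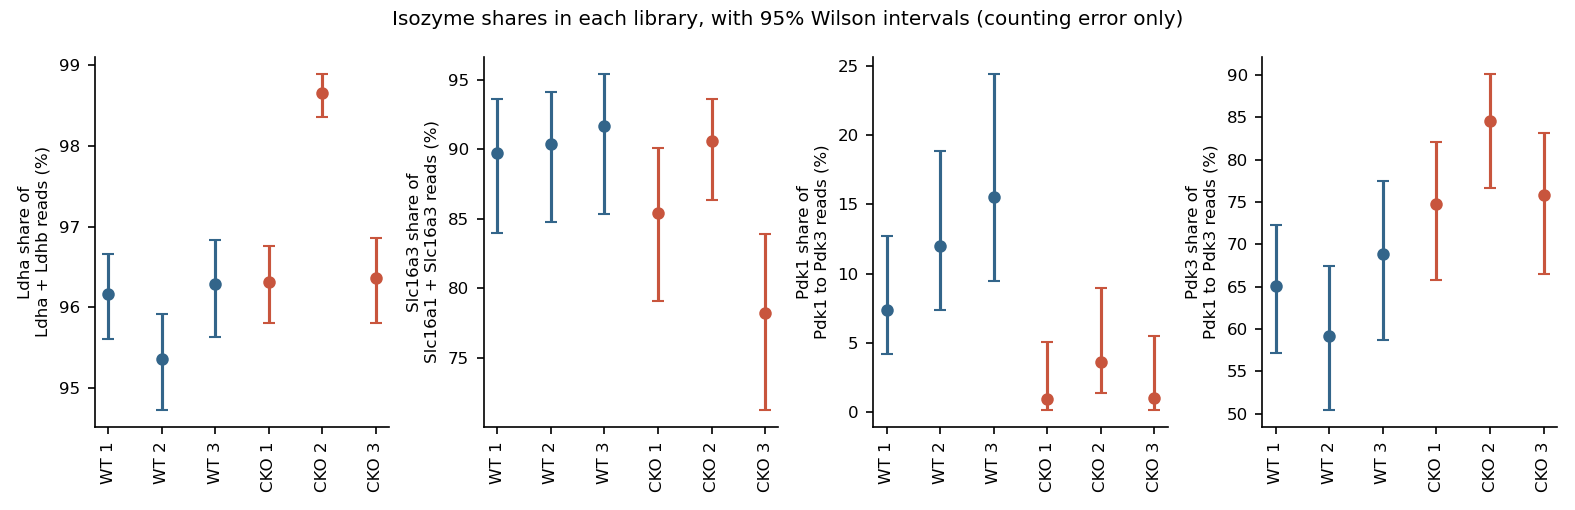
Share of reads in percent that Ldha, Slc16a3, Pdk1 and Pdk3 took of their group in each library, WT in blue and CKO in red, with 95% Wilson intervals for counting error. The axes of the Ldha, Slc16a3 and Pdk3 shares do not start at 0. CKO 2 has the highest Ldha share at 98.6%, CKO 3 the lowest Slc16a3 share at 78.3%, and the Pdk1 share is at most 3.64% in CKO and at least 7.38% in WT.

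The genes most like Ldha in their pattern over the 6 libraries, among 1657 others with a mean of at least 100 CPM, were Lsm5, Eno1 and Rpl27. The root mean square difference of log2(CPM + 1), with each gene centred on its own mean, was 0.0498 for Lsm5, which encodes an RNA-binding Sm-like protein, 0.0644 for Eno1, the glycolytic enolase, and 0.0747 for Rpl27, a ribosomal protein. Each was highest in CKO 2 and lowest in WT 3, as Ldha was, which follows closely from choosing them by this pattern.

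Slc16a1 and Slc16a3 encode the transporters MCT1 and MCT4, which carry lactate and pyruvate, MCT4 being the form typical of glycolytic cells that export lactate. Slc16a1 (ENSMUSG00000032902; GRCm38 chromosome 3, 104638668 to 104658462, plus strand) was at 11.6, 11.3 and 8.45 CPM in the WT libraries, from 16, 15 and 10 reads. The CKO libraries had 15.8, 17.3 and 30.3 CPM, from 23, 24 and 35 reads. Every CKO library lay above every WT library, with CKO 3 highest. The summed level was 1.95-fold that of WT (95% exact interval 1.33 to 2.91, counting error only). The log2 fold change of 0.91 (95% interval 0.19 to 1.63) had an unadjusted p = 0.0183 and did not pass after adjustment (limma's adjusted p = 0.137). It was positive in all 14 alternatives, from 0.63 without CKO 3 to 1.08 without CKO 1, with adjusted p from 0.0692 to 0.394.

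Slc16a3, the more abundant transporter, was at 101, 106 and 92.9 CPM in the WT libraries. The CKO libraries had 92.8, 167 and 109 CPM. CKO 2 was highest, and CKO 1 was level with the lowest WT library. The log2 fold change was 0.25 (95% interval -0.24 to 0.74, limma's adjusted p = 0.565), and it was 0.011 without CKO 2. Slc16a3 supplied 89.7%, 90.4% and 91.7% of the reads of both transporters in the WT libraries against 85.4%, 90.6% and 78.3% in the CKO libraries. CKO 1 and CKO 3 lay below the WT range, and CKO 2 lay within it.

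Mpc1 and Mpc2 encode the subunits that pair to form the mitochondrial pyruvate carrier of the inner membrane. Mpc2 was at 192, 146 and 136 CPM in the WT libraries and had 151, 111 and 137 CPM in the CKO libraries. The genotypes overlapped, with a log2 fold change of -0.24 (95% interval -0.67 to 0.18, limma's adjusted p = 0.511). It was -0.12 without CKO 2 and -0.097 without WT 1, the highest library. Mpc1 had 40 reads in all 6 libraries, at 5.07, 6.004 and 5.91 CPM in WT against 2.75, 3.61 and 7.80 CPM in CKO. Its log2 fold change of -0.32 has a 95% interval from -1.26 to 0.63, so a fall of 1 on the log2 scale is not excluded, and it ran from -0.68 without CKO 3 to -0.062 without CKO 1. Mpc1 supplied 8.52% to 13.3% of the carrier reads per kilobase in WT and 6.05% to 16.7% in CKO, again with overlap. The Mpc1 exons overlap an antisense gene over 480 bases, and the strand setting of the read counter is not given in the sources used here.

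CKO 2 was the lowest of the 6 libraries for Ldhb, Pdha1, Pdk2 and Mpc2 and the highest for Ldha and Slc16a3, 6 of the 10 genes, where it was at an extreme for 42.7% of all genes tested. WT 3 was at an extreme for 4 of the 10 genes, against 37.9% of all genes. Red cell markers summed to 28.9 CPM in CKO 2 and to at most 6.07 CPM elsewhere. Osteoblast markers summed to 339 CPM in CKO 2 against 1024 and 1147 CPM in CKO 1 and CKO 3, and to 436 to 676 CPM in WT. Ibsp alone made up 708 and 808 CPM in CKO 1 and CKO 3, against 83.0 CPM in CKO 2 and 82.5 to 129 CPM in WT. Col1a1, the most abundant of these markers, was lower in each CKO library, at 240 to 269 CPM against 270 to 541 CPM in WT. Of the 5 markers, 4 had positive log2 fold changes and 1 a negative one, and 0 passed limma's adjusted threshold. Hypertrophic chondrocyte markers, most abundantly Spp1, summed to 1311 to 4468 CPM in WT, highest in WT 3, and to 12301 to 14365 CPM in CKO. Spp1 alone made up 1037 to 3769 CPM of this in WT and 11114 to 12045 CPM in CKO. Only Spp1 of this list passed limma's adjusted threshold (log2 fold change 2.84, adjusted p = 0.00403). Mmp13, with a log2 fold change of 1.81, was not called, and its CKO 2 value of 377 CPM lay within its WT range. Col10a1 at 0.33 and Runx2 at -0.997 were not called either, and Ihh had 3 reads over all libraries. Skeletal muscle markers summed to 42.0 to 173 CPM in WT, again highest in WT 3, and to 97.1 to 109 CPM in CKO, and those of macrophages and osteoclasts to 151 to 384 and 284 to 309 CPM, of which Lyz2 made up 270.3 CPM in WT 3. All 7 of the latter had positive log2 fold changes, and 1 of them, Cd68, rose from 8.70, 6.75 and 11.8 CPM to 76.3, 46.9 and 76.3 CPM (log2 fold change 2.74, limma's adjusted p = 0.00114). Epidermis markers had 17.7 to 39.1 CPM in WT and 31.2 to 44.8 CPM in CKO, endothelium markers at most 2.89 CPM, and neutrophil markers at most 0.725 CPM. The part of these cells in the values of CKO 2 and WT 3, or in the differences between genotypes, was not tested.

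Hif1a, which encodes the regulated subunit of Hif-1, had 19.6, 19.5 and 26.2 CPM in WT against 13.7, 13.7 and 15.6 CPM in CKO, without overlap (log2 fold change -0.56, limma's adjusted p = 0.253). Of 21 other genes known to be induced by hypoxia, 20 could be tested, and 0 passed limma's adjusted threshold, against 5.78% of all genes tested. At an unadjusted p under 0.05 there were 4 of the 20, against 21.3% of all genes tested, and the median log2 fold change was 0.079, beside 0.013. In edgeR and in DESeq2, 1 of them was called, as lower, P4ha2, a prolyl hydroxylase subunit of collagen synthesis. Adm, which encodes the vasodilator peptide adrenomedullin, met the study's criterion with 29.0, 30.8 and 51.5 CPM in WT and 110.0, 33.9 and 125 CPM in CKO. CKO 2 lay within the WT range. Adm differed by 1.09 on the log2 scale (limma, adjusted p = 0.181), and without CKO 2 it differed by 1.68 and passed (adjusted p = 0.00259).

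The wider pathway of pyruvate and lactate was described with a list of 43 further genes, of which 39 are in the table and 32 could be tested. Of these, 1 rose and 2 fell past limma's adjusted threshold, where 3.18% of all genes tested were called higher and 2.6% lower, and the median log2 fold change was 0.12, beside 0.013 over all genes tested. The genes that fell were Gpt2 and Pck2, and the gene that rose was Got2, each without overlap between the genotypes. Gpt2, the mitochondrial alanine transaminase, which converts pyruvate and glutamate to alanine and 2-oxoglutarate, had 23.9, 24.8 and 55.8 CPM in the WT libraries and 9.63, 10.1 and 3.47 CPM in the CKO libraries. Its log2 fold change was -2.04 (limma, standard error 0.44, adjusted p = 0.0259). Pck2, the mitochondrial phosphoenolpyruvate carboxykinase, fell from 339.9, 341 and 405 CPM to 207, 199 and 237 CPM (log2 fold change -0.75, standard error 0.15, limma's adjusted p = 0.0209). Got2, the mitochondrial aspartate transaminase of the malate-aspartate shuttle, which reoxidises cytosolic NADH in competition with lactate dehydrogenase, rose from 57.3, 77.3 and 76.0 CPM to 112, 131 and 126 CPM (log2 fold change 0.81, standard error 0.19, limma's adjusted p = 0.0330). Like that of Pdk1, these calls were lost in most fits that left out 1 library. The fits that lost them also called fewer of all genes than the fit with all libraries. Gpt2 lost its call without any one library but CKO 2, with adjusted p up to 0.0866. Pck2 and Got2 lost theirs without WT 1, WT 2, CKO 1 or CKO 3, with adjusted p up to 0.0923 and 0.136.

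Around pyruvate dehydrogenase, 4 further subunits were tested and 0 passed the adjusted threshold in limma, edgeR or DESeq2, with 1, Pdhx, at an unadjusted p under 0.05. Pdhx, which tethers the E3 subunit to the core, was at 23.3 to 27.0 CPM in WT and 34.6 to 39.0 CPM in CKO without overlap, a log2 fold change of 0.52 (95% interval 0.053 to 0.996, limma's adjusted p = 0.188). Pdhb, the E1 beta subunit, had a log2 fold change of 0.19, Dld, the E3 subunit, one of 0.39, and Dlat, the E2 subunit, one of -0.29, all with overlapping libraries. The overlap of Dld lay between WT 3 at 128 CPM and CKO 2 at 125 CPM. Without both of these Dld was at 0.60 and passed (limma, adjusted p = 0.00268), as 20.2% of the genes tested in that fit did. Without CKO 2 Dlat was at -0.075, and without both libraries Pdhb was at 0.31 and Dlat at -0.11, neither called. The phosphatases that reverse the phosphorylation were not called either, Pdp1 having a log2 fold change of -0.014, which was 0.53 without CKO 2 and -0.30 without WT 3, and Pdp2 one of -1.12 from 20 reads in all. Pdk4, a kinase associated with fasting, was listed at 0 reads in each WT library and had 2, 6 and 0 reads in CKO, and Pdpr, a regulatory subunit of the phosphatase, had 7 reads in all 6 libraries, both below the level tested.

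Pkm encodes pyruvate kinase, which makes pyruvate, and was at 1081, 1228 and 1456 CPM in the WT libraries. The CKO libraries had 1741, 2967 and 1729 CPM. Each CKO library exceeded each WT library, and CKO 2 was highest. The log2 fold change of 0.74 (95% interval 0.25 to 1.22) missed the adjusted threshold in limma (adjusted p = 0.0802) and passed it in DESeq2 (0.75, adjusted p = 0.0415). Without CKO 2 it was 0.48 (limma, adjusted p = 0.0525). Without both WT 3 and CKO 2 it was 0.59 (limma, adjusted p = 3.3e-06), in the fit that called 20.2% of the genes it tested. Pkm has 9 near-identical annotated copies, none of which is in the table. Bsg, basigin, the chaperone that brings MCT1 and MCT4 to the membrane, was at 2797, 2211 and 963 CPM in WT against 1509.5, 766 and 1487 CPM in CKO. Its low values belonged to WT 3 and CKO 2, and the log2 fold change of -0.60 (95% interval -1.43 to 0.23, limma's adjusted p = 0.392) was -0.73 with adjusted p = 1.46e-06 without both. With 1 library left out it ran from -0.27 without CKO 2 to -1.05 without WT 3, and no such fit called it. Emb, embigin, a relative of Bsg that also escorts transporters, had a log2 fold change of 0.27, with WT 3 at 345 CPM in the CKO range of 323 to 369 CPM and the other WT libraries below it. It was 0.41 without WT 3 (limma, adjusted p = 0.165) and 0.35 without both WT 3 and CKO 2, where it passed (adjusted p = 0.0165). Slc16a7, which encodes MCT2 and had 15 reads in all libraries, had a log2 fold change of 0.48, Ldhd, the D-lactate dehydrogenase, with 23 reads, one of -0.51, and Pcx, pyruvate carboxylase, with 155 reads, one of 0.15, none of them called.

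**Figure D4:**
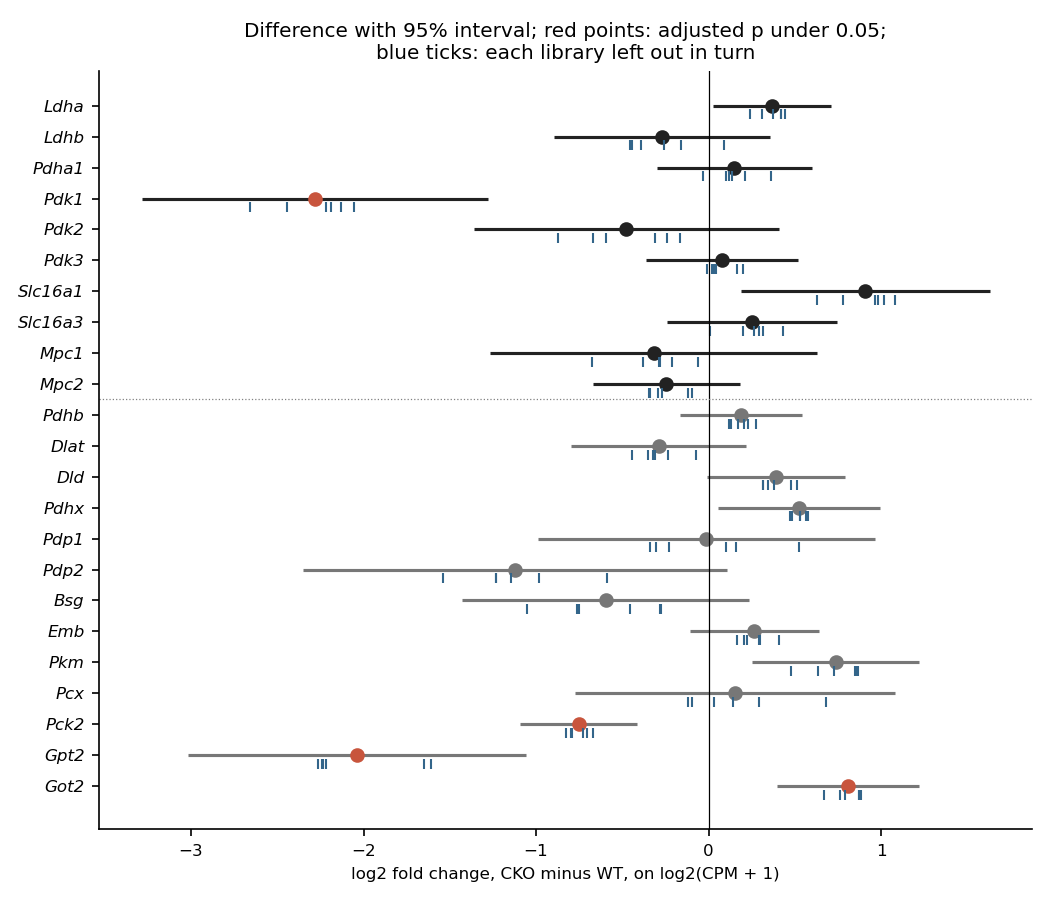
Log2 fold change of CKO over WT on log2(CPM + 1) with its 95% interval for the 10 genes (above the dotted line) and 13 genes of the wider pathway (below it), with the values after leaving out each library in turn as blue ticks. Red points mark the genes past limma's adjusted threshold of 0.05, which are Pdk1, Pck2, Gpt2 and Got2.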

How the data were processed

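Polyadenylated RNA was sequenced with a stranded kit in 6 libraries, and table columns were matched to samples by the genotype and number in their titles. The deposited values are CPM per gene. Per the labels, the submitters' processing notes name cutadapt 2.5, HISAT2 and featureCounts 1.6.3, and the build is not given in the sources used here. All CPM values (100%) were whole multiples of 1 read to within 6.12e-06 reads, so reads were recovered for the count tests.

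limma (3.58.1, R 4.3.3) was fitted on log2(CPM + 1) with genotype as the only term, a mean of at least 1 CPM, a trended prior and Benjamini-Hochberg adjustment. Alternatives were a pseudocount of 0.1, no filter, the replicate number as a block, each library left out, TMM scaling, edgeR (4.0.16) with TMM or RLE factors and DESeq2 (1.42.0). Tested on simulated data for WT against CKO, with 200 genes changed 4-fold, limma called 83.5% of them among 12091 genes. The changed genes were not drawn from the lowest levels, every gene had the same dispersion of 0.05, and no library was made to stand apart. The share therefore does not carry over to the smaller differences and unequal libraries of the real data. Coordinates, exon lengths and copies (BLAST 2.17.0, at least 90% identity over 300 bases) came from GENCODE M21 on GRCm38.

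The members, lists and tests were chosen with earlier results of these data known. Named are the 10 genes, their fixed partners, listed genes past a threshold, Hnrnpk and Hif1a, markers, and the 3 genes most like Ldha; P4ha2 was named after its values were seen. No source states that replicates are separate embryos, so p-values measure the spread between these libraries, which may be technical.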

Additional observations from a re-analysis of the deposited data

How the results depend on the processing

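Of the 10 genes, 6 kept their direction in every alternative fitted. Without CKO 2 the log2 fold change of Ldhb was 0.092, without CKO 3 that of Pdha1 was -0.033, and without WT 3 that of Pdk3 was -0.0077. Leaving out 1 library at a time gave ranges of -0.45 to 0.092 for Ldhb, -0.033 to 0.36 for Pdha1, -0.0077 to 0.20 for Pdk3, 0.011 to 0.43 for Slc16a3, -0.34 to 0.53 for Pdp1, -0.055 to 1.21 for Slc16a7 and -0.12 to 0.68 for Pcx. Another alternative, without both WT 3 and CKO 2, was added after seeing the data. Its values were -0.062 for Pdk3, -0.041 for Slc16a3, 0.24 for Pdp1, 1.79 for Slc16a7 and 0.82 for Pcx. That fit called 20.2% of all genes it tested. Of the 10 genes it called 1 higher (Ldha) and 1 lower (Pdk1). Of the 32 wider pathway genes fitted it called 6 higher and 4 lower. Under edgeR, edgeR with RLE factors and DESeq2, Pdp1 was at 0.054, 0.061 and 0.075 and Pcx at -0.054, -0.049 and -0.044. The cause was not tested.

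With each library left out, the adjusted calls among the 10 genes ran from 0 to 1 lower, the study's criterion gave 0 to 1 higher (Slc16a1, without CKO 1 or without CKO 2), and the wider pathway had 0 to 1 higher and 0 to 3 lower calls. DESeq2 called 2 wider pathway genes higher, Got2 and Pkm. The replicate block left 0 higher and 1 lower call in the wider pathway, Got2 (adjusted p = 0.0663) and Gpt2 (0.0705) losing theirs, kept Pdk1 (0.0378) and called 385 genes in place of 703. No pairing by replicate number was seen. The deviations of same-numbered libraries correlated at 0.038, -0.131 and -0.103, and no library correlated best with its own number. With so few libraries, and WT 3 and CKO 2 apart from the rest, these correlations cannot exclude a pairing by litter.

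Per kilobase of exon, the mean shares in WT and CKO were 91.8% and 94.1% for Ldha and 11.5% and 11.0% for Mpc1, and in WT 88.9% for Slc16a3, 4.40% for Pdk1 and 73.5% for Pdk3. The kinases had 49.2 and 42.2 reads per 100 of Pdha1 in WT and CKO, and Ldha 15.9 per Pdha1 read in WT. Over all genes, calls ranged from 212 to 1298 with 1 library left out, and were 737 in edgeR, 637 in DESeq2 and 2410 without both WT 3 and CKO 2. Mpc1, Pdp2, Ldhd and Slc16a7 fell under edgeR's filter. Among the 10 genes, Mpc1 and Pdk1 had the fewest reads, 40 and 46 in all.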
